A study of Homo sapiens and Mus musculus with 41 samples.

Results

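The intermediate stage derivative of the breast cancer line MDA-MB-231 (Int) was compared with the parental line (Par) by RNA sequencing, with 2 Int and 3 Par libraries, 5 of the 41 samples of the series. MDA-MB-231 is an established human breast carcinoma line without oestrogen receptor, progesterone receptor or HER2. Both groups stably express green fluorescent protein, and the labels name no other treatment of either. The labels describe how derivatives were made in general and not what sets the intermediate stage apart: from mice with leptomeningeal metastases of the line, cells rinsed from the leptomeningeal space with buffer were grown on plastic in DMEM with 10% serum until the culture was uniformly fluorescent, and were passaged 3 times before RNA was taken. According to the design text the Par replicates are technical and the Int replicates a mixture of technical and biological ones, without saying which, so that every p-value below measures only the spread between these libraries. The same table holds 2 libraries of the leptomeningeal derivative (Lep) and 3 of the brain metastatic derivative (BrM), which entered the fit and are given as values beside some genes. The comparison covers the 15106 of 23368 genes with a normalised read count of at least 10 in at least 2 of the 10 libraries. It addresses which transcripts differed between the line and cells recovered at an intermediate stage.

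The leptomeninges are the membranes and the fluid-filled space around the brain and spinal cord, a compartment poor in nutrients and in plasma proteins. NF-kB is a family of transcription factors that is held in the cytoplasm by inhibitor proteins and is released by signals such as interleukin 1 and tumour necrosis factor. Its targets include cytokines, chemokines that draw neutrophils and monocytes, adhesion molecules, and the inhibitors that end the signal. Complement is a cascade of plasma proteins with C3 at its centre, and lipocalin 2 binds iron-loaded siderophores.

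The deposited values corresponded to between 35755050 and 66443723 counts per Par library and to 110830546 and 96283309 counts in the Int libraries. The libraries differed by a trend with transcript length. Across genes, Spearman's rho between a gene's deviation from its mean over the 10 libraries and its transcript length was 0.45 and 0.436 in Int, 0.469 in Par replicate 1, and −0.347 and −0.449 in Par replicates 2 and 3, a description over genes, which are not independent replicates. Par replicate 1 thus shared the trend of the Int libraries, and the other Par libraries had the opposite one. Par replicates 1 and 3 differed by more than 2-fold in 4609 genes, whereas Par replicate 1 and Int replicate 1 did so in 1561. The 2 Int libraries differed by more than 2-fold in 206 genes. For this reason each difference below was also taken against Par replicate 1 alone and after a per-library correction for transcript length and GC content.

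In Int, 654 genes (4.33% of 15106) were higher and 395 (2.61%) lower, at a Benjamini-Hochberg adjusted p under 0.05 in limma and a change of at least 1 on the log2(value + 1) scale, the scale of every difference below. Genes passing both criteria are called higher or lower here, and errors are standard errors of the fit. In all 654 and all 395 genes the Int libraries lay outside the range of the Par libraries. After the correction, 767 (5.34%) and 407 (2.84%) of 14355 genes with a known length were called, and 521 and 214 genes were called both ways. Without any test, every Int library was at least 1 log2 unit above every Par library in 569 genes (3.77%) and below in 183 (1.21%). Against Par replicate 1 alone, 492 of the 654 and 153 of the 395 genes still differed by at least 1 log2 unit.

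The counts depended on single libraries. Without Par replicate 1 they were 2008 higher and 1837 lower, without Par replicate 2 they were 111 and 21, and without Par replicate 3 they were 332 and 76. With Int replicate 2 as the only Int library 10 and 0 genes were called, and with Int replicate 1 alone none, where the lone library is assumed to vary like the other groups; at an unadjusted p under 0.05 limma then gave 1390 higher and 1677 lower genes with Int replicate 2, and 1155 and 1143 with Int replicate 1. A fit of the 5 libraries alone called 282 and 74. The median length of the longest transcript was 4598 bases for the genes called higher, 2177 for those called lower and 3576 for all genes tested; after the correction it was 3369 and 3718 for the genes called.

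**Figure D1:**
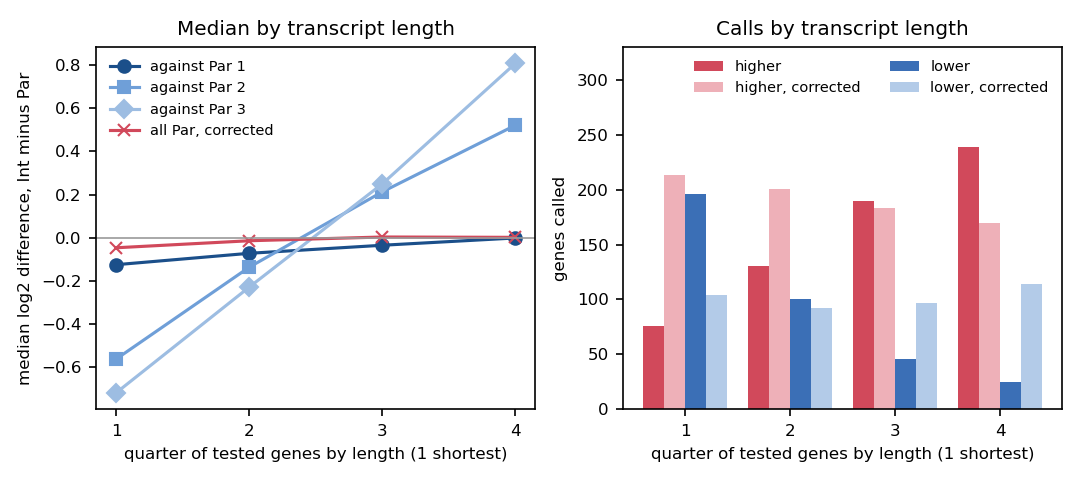
Left, median log2 difference of Int from each parental library, and from all 3 after correction, in 4 equal groups of genes by transcript length (1 is the shortest, up to 2279 bases). Right, number of genes called in each group before and after correction. The median ran from −0.72 in the shortest to 0.81 in the longest group against Par replicate 3, and from −0.13 to −0.0012 against Par replicate 1; calls of higher genes ran from 76 to 239 before correction and from 213 to 170 after it.

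Cytokines and other NF-kB targets were the group with the highest median difference of the lists examined. Of 33 listed genes 31 were tested, and 15 were called higher and none lower, beside 4.33% and 2.61% of all genes. In 28 of the 31 every Int library lay above every Par library, as it did in 4020 of all 15106 genes. The median difference was 2.79, against 0.02 over all genes tested, and it was 2.91, 2.67 and 3.02 against Par replicates 1, 2 and 3. After the correction 22 of the 31 were called higher, with a median of 2.91, and the fit of Par and Int alone called 18. Without Par replicates 1, 2 and 3 in turn 19, 1 and 3 members were called higher, and with only 1 Int library none. The members not tested were under the filter on low values.

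CSF3, the growth factor of granulocytes, had 58.4, 86.3 and 90.6 normalised counts in Par and 5570 and 6211 in Int. The 2 Int libraries lay far above all 3 Par libraries, and CSF3 rose by 6.24 ± 1.47 (adjusted p = 0.035). The Lep libraries had 9373 and 14987 and the BrM libraries 53.6, 4213 and 2403. In RNA from a whole culture, a higher level per cell and a larger share of cells with the transcript cannot be told apart. IL1B, encoding interleukin 1 beta, stood at 487, 639 and 370.3 in Par and 14114 and 30439 in Int, a rise of 5.41 ± 1.04 (adjusted p = 0.022). All Int values again exceeded the highest Par value. IL1A, its relative, rose by 3.20 ± 0.78 (adjusted p = 0.038), from 265, 425 and 223 to 2156 and 3405. The gene of tumour necrosis factor, TNF, was almost silent in Par, with 2.02, 0 and 3.23, and had 34.6 and 132 in Int (4.88 ± 1.18, adjusted p = 0.038). The groups did not overlap, but the Int values of TNF differed from each other by several-fold.

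CSF2, which encodes a growth factor of granulocytes and macrophages, rose from 238, 189 and 144 to 4232 and 6838 (4.84 ± 1.05, adjusted p = 0.028). The macrophage growth factor gene CSF1 was already abundant in Par, at 6087, 4668 and 4035, and reached 31891 and 39145 in Int (2.86 ± 0.68, adjusted p = 0.036). IL6, encoding interleukin 6, rose by 3.78 ± 0.81, from 221, 206 and 93.8 to 1472 and 3407. LIF, a member of the same cytokine family, rose by only 1.06 ± 0.15. IL11, of that family too, had 3544, 3258 and 3783 in Par and 8331 and 13015 in Int and narrowly missed the threshold (adjusted p = 0.051, and 0.024 after the correction). IL24 did not follow the others: its Int values of 961 and 970.3 lay within the Par range of 635, 831 and 1460.

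The chemokine gene IL8 (CXCL8) was among the more abundant of these transcripts, at 1790, 2099 and 1020 in Par and 29474 and 44046 in Int (4.52 ± 1.04, adjusted p = 0.033). CXCL1, CXCL2 and CXCL3, encoding close relatives that act on the same neutrophil receptor, were separated from Par by a wide gap but were not called. CXCL1 had 411, 523 and 466 in Par and 5231 and 5324 in Int, and CXCL2 217, 302 and 270.1 against 1938 and 2489. Their differences were 3.50 and 3.07, with adjusted p of 0.081 and 0.064. The BrM libraries, whose spread enters the error of these values, had 341, 11385 and 6881 for CXCL1: replicate 1 stood at the level of Par and the others at or above that of Int. In the fit of Par and Int alone the adjusted p was 0.0082 for CXCL1, 0.013 for CXCL2 and 0.018 for CXCL3. CXCL5 was listed at 0 in all Par libraries and at 13.1 and 11.9 in Int, at least 11.8-fold higher against a floor of 3 reads over the Par libraries. The CXCL genes are near-identical in part of their sequence, and the counting could split reads among them.

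ICAM1, the adhesion molecule that binds leukocyte integrins, rose from 1318, 904 and 1079 to 10801 and 16517 (3.62 ± 0.76, adjusted p = 0.026). PTGS2, the inducible cyclooxygenase, rose from 563, 576 and 152 to 2459 and 7347 (3.53 ± 0.64, adjusted p = 0.018). Both were separated in each pair of libraries. The inhibitors and feedback genes of the pathway were higher too. NFKBIA, which encodes the inhibitor that retains NF-kB in the cytoplasm, rose by 1.87 ± 0.49 (adjusted p = 0.044), TNFAIP3, encoding the ubiquitin-editing enzyme A20, by 2.26 ± 0.55 (adjusted p = 0.038), and NFKBIZ, encoding a nuclear cofactor, by 2.79 ± 0.39 (adjusted p = 0.0085). TNFAIP2 rose by 1.19 ± 0.29 (adjusted p = 0.038). The subunit genes NFKB1 and RELB overlapped between the groups. NFKB1 had 4532, 2606 and 2816 in Par and 3297 and 3094 in Int. RELB had 1325, 2347 and 3398 in Par and 1586 and 1619 in Int. NFKB2 had 7391 and 7877 in Int and 4469, 5344 and 5917 in Par, a difference of 0.55 that was not called. BIRC3, an apoptosis inhibitor, and SOD2, the mitochondrial superoxide dismutase, whose exons overlap ACAT2 and WTAP on the other strand, had differences of 1.28 and 1.48 that were not called. The chemokine genes CCL2 and CCL20 differed by 2.45 and 2.51, the cytokine gene IL32 by 1.36 and the acute-phase gene SAA2 by 3.22, none of them called.

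Promoter sequence was available from RefSeq (GRCh38.p14) for 24 of the 31 genes. The 250 bases before the start were searched on both strands for 1 strict form of the NF-kB consensus, GGGRNNYYCC. Here R is A or G, Y is C or T, and N is any base. A match was present in 12 of the 24 promoters, against 1206 of the 10249 tested genes with a promoter sequence (11.8%) and 9.57% of all 27305 promoters of the table. The list was drawn up from NF-kB targets and cytokines, so that this share reflects its choice and says nothing of Int. Among the genes called higher with a promoter sequence a match was present in 4 of 12 of this list and in 59 of all 462 (12.8%). The share in the called members, 33.3%, was under the 50% of the whole list. The 4 promoters of this list are shown, on the strand of the gene and 5′ to 3′, with the matches in capitals. They were picked as the called members with a match. They belong to a secreted product of the pathway and to 3 of its feedback genes. The lines stand at chr7:22726950-22727199 (plus strand), chr3:101827740-101827989 (plus), chr6:137867009-137867258 (plus) and chr14:35404750-35404999 (minus).
IL6: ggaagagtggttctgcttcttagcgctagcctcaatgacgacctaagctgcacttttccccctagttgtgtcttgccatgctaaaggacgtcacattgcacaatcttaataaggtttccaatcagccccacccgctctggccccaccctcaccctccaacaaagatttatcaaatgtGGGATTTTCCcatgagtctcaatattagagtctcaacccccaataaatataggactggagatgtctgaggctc
NFKBIZ: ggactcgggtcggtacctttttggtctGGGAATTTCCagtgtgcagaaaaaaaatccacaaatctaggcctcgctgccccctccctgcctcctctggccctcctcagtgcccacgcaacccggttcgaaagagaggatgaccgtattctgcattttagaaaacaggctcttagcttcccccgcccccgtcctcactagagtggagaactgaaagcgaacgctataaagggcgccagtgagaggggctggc
TNFAIP3: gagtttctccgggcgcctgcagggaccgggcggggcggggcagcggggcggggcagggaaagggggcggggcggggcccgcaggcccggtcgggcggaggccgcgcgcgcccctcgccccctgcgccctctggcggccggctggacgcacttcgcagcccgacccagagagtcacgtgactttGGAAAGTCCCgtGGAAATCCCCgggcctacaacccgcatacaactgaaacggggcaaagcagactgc
NFKBIA: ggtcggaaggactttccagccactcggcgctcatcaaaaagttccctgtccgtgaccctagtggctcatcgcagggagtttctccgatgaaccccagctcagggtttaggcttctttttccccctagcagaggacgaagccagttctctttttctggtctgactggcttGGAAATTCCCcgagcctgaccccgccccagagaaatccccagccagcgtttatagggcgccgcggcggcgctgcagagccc
TNFAIP3 held 2 matches and the others 1. The windows of the other called members, IL1B, TNF, CSF2, CXCL8, ICAM1, PTGS2, IL1A and TNFAIP2, held no match to this form. Sites that depart from it, or lie outside the window, were not searched for. The matches describe the sequence and were not tested against binding.

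**Figure D2:**
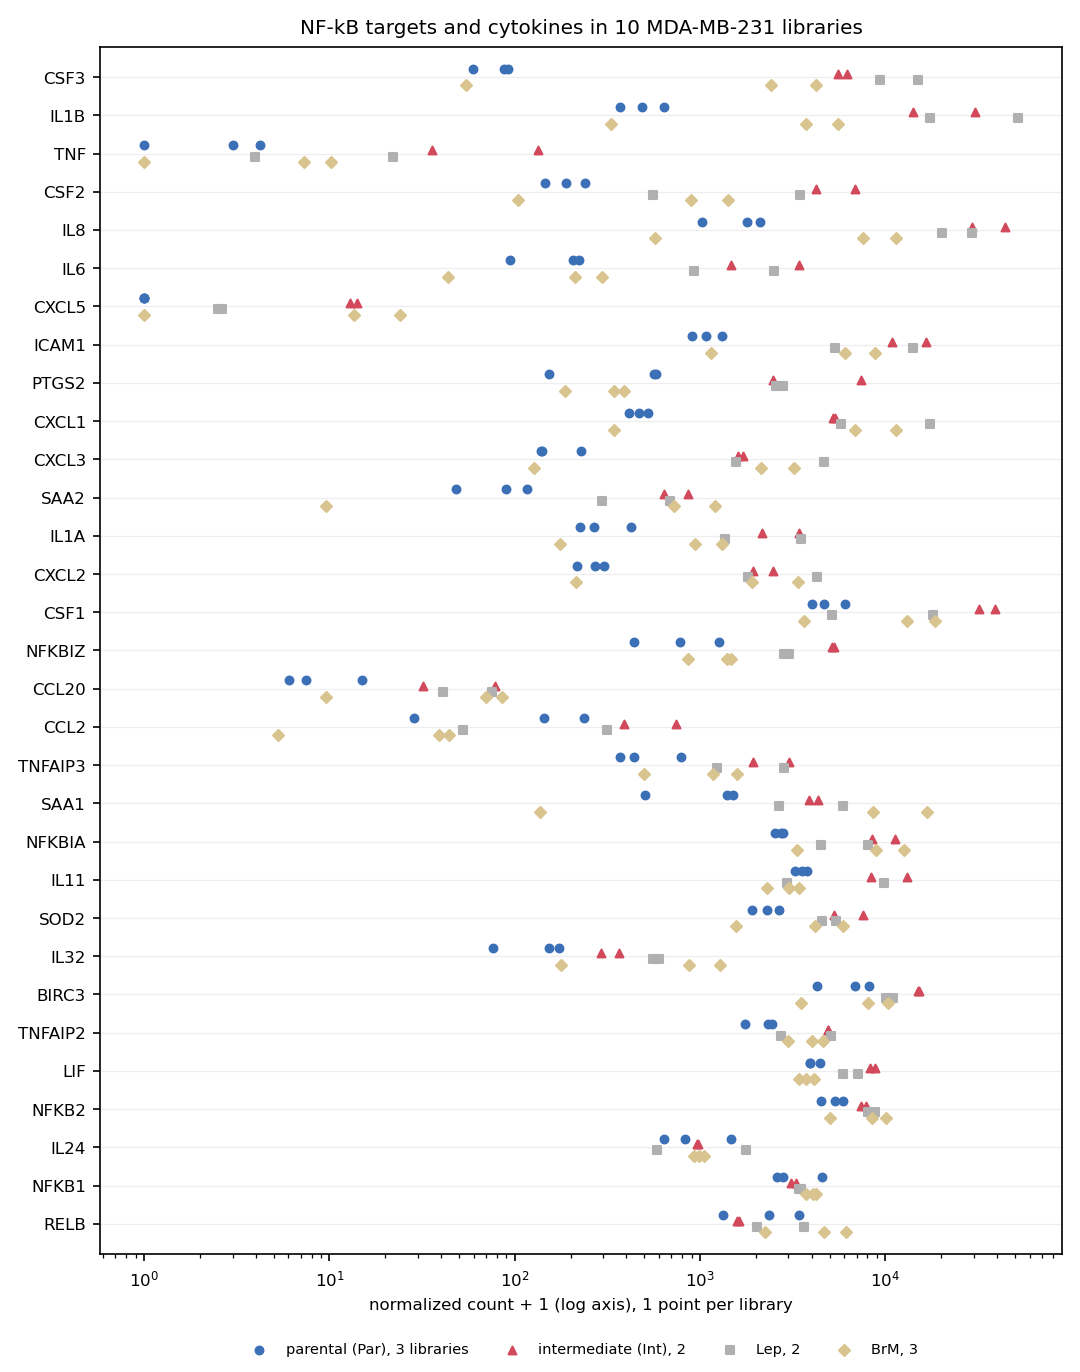
Normalised count plus 1 of the 31 tested NF-kB targets and cytokines in each of the 10 MDA-MB-231 libraries (log axis, 1 point per library), ordered by the difference between Int and Par. In 28 genes both Int points lie to the right of all Par points; IL24, NFKB1 and RELB overlap.

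C3, the central complement component, had 65.5, 69.9 and 80.9 normalised counts in Par and 2977 and 3057 in Int. Both Int libraries were far above every Par library. The difference of 5.37 ± 1.66 was not called (adjusted p = 0.063), and BrM, whose spread enters that error, had 19.3, 2595 and 1621. In the fit of Par and Int alone the adjusted p was 0.0037. Lep had 6506 and 3425. CFB, encoding factor B of the alternative pathway, rose from 472, 686 and 996 to 2917 and 5980 (2.60 ± 0.48, adjusted p = 0.019). CFI, encoding the protease that degrades C3b, rose by 2.72 ± 0.71 (adjusted p = 0.044), and C3AR1, encoding a receptor of the C3a fragment, by 1.82 ± 0.46 (adjusted p = 0.042). C1R and C1S encode the proteases of the first component. C1R had 74.6, 96.2 and 157 in Par and 349 and 331 in Int, and C1S had 25.2, 22.2 and 21 in Par and 93.6 and 106 in Int. Both genes were separated in every library, and both were called after the correction and not before it. Of 23 complement genes 17 were tested, and 3 were called higher and none lower, beside 4.33% and 2.61% of all genes. The median difference of the list was 0.75. After the correction 6 were higher, and 4 in the fit of Par and Int alone; without Par replicates 1, 2 and 3 in turn it was 6, 0 and 1, and without either Int library none.

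LCN2, encoding lipocalin 2, stood at 8.06, 18.1 and 4.85 in Par and 339.9 and 345 in Int, and rose by 5.10 ± 1.07 (adjusted p = 0.026). The Lep libraries had 299.5 and 38.1 and the BrM libraries 8.58, 95.5 and 59.9. Its receptor gene SLC22A17 did not pass the filter. Of 13 tested genes of iron handling LCN2 was the one called higher and FTL, the ferritin light chain, the one called lower, from 74510, 127930 and 119577 to 50048 and 42301 (−1.18 ± 0.28, adjusted p = 0.038). FTL was not called after the correction, where its difference was −0.55. Without Par replicate 1, 2 iron genes were called higher and 2 lower. Without Par replicate 2 or 3 none was called, LCN2 included.

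Of 33 interferon-stimulated genes tested, 3 were higher, beside 4.33% of all genes, and none lower, with a median of 0.25; in 17 both Int libraries lay above every Par library, beside 4020 of all 15106 genes. Leaving out Par replicate 1, 8 were higher and 5 lower, without Par replicates 2 and 3, 1 and 2 higher, and without either Int library none. CXCL10, a chemokine of T cells that interferon and NF-kB both induce, rose from 1.01, 0.822 and 6.47 to 42.9 and 83.3 (4.34 ± 0.94, adjusted p = 0.028). The guanylate-binding protein gene GBP2 rose by 2.47 ± 0.33 (adjusted p = 0.0075) and IFI44L by 1.76 ± 0.42 (adjusted p = 0.036), the latter not after the correction. None of 22 genes of antigen presentation was called either way by limma, and their median difference was 0.13, but 0.61, −0.05 and −0.28 against Par replicates 1, 2 and 3. At an unadjusted p under 0.05, 3 were above and 1 below, and at an adjusted p under 0.05 edgeR gave 0 and DESeq2 2 of them. TAP1, the peptide transporter subunit, had 2662, 2295 and 2740 in Par and 3425 and 3606 in Int.

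Mucins led the genes with the largest rise. MUC5B, a gel-forming mucin of airway and gland secretions, had 22.2, 4.93 and 4.85 in Par and 942 and 1070 in Int (6.76 ± 0.80, adjusted p = 0.0054). MUC2, the gel-forming mucin of the intestine, was at 0 in all Par libraries and at 126 and 84.7 in Int. That is at least 99.1-fold higher against a floor of 3 reads over the Par libraries. In Lep, MUC5B had 610.4 and 96.4 and MUC2 38.1 and 17.2; in BrM, MUC5B did not exceed 15.4.

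Other large rises included enzymes and membrane proteins. NOX5, a calcium-activated NADPH oxidase, rose from 58.4, 69.9 and 64.7 to 1938 and 4211 (5.45 ± 0.59, adjusted p = 0.0043); it shares exonic sequence with SPESP1. PTPRU, a receptor tyrosine phosphatase, had 60.5, 40.3 and 42 in Par and 1293 and 1193 in Int (4.70 ± 0.52, adjusted p = 0.0054). Neither gene overlapped between the groups, and the Lep libraries, 498 and 97.9 for NOX5 and 207 and 47.1 for PTPRU, differed from each other. DHRS3, a retinaldehyde reductase, rose by 4.42 ± 0.63 (adjusted p = 0.0087), and CYP3A5, a drug-metabolising cytochrome, by 4.78 ± 1.11 (adjusted p = 0.034). TNFSF15, a cytokine of the tumour necrosis factor family, had 244, 175 and 17.8 in Par and 2418 and 8398 in Int, so that each group held a wide range (5.60 ± 1.13, adjusted p = 0.024). SERPIND1, encoding heparin cofactor II, rose from 89.7, 107 and 93.8 to 1392 and 2577 (4.28 ± 0.63, adjusted p = 0.0095). C1QTNF1, a secreted protein with a C1q-like domain, rose by 4.72 ± 1.03 (adjusted p = 0.028).

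Genes that rose were in part neighbours in the genome. Of the 14530 tested genes that could be placed in RefSeq order, runs of at least 3 consecutive tested genes, all separated from Par by at least 1 log2 unit, occurred 13 times among the higher genes, with 48 genes, 23 of them called, and not among the lower ones. The longest run held 7 genes on chromosome 4, RASSF6, IL8, CXCL1, PF4, CXCL5, CXCL3 and CXCL2. PF4, encoding platelet factor 4, was at 1.01, 3.29 and 0 in Par and 10.9 and 14.9 in Int, and RASSF6 rose from 3.02, 3.29 and 1.62 to 17.5 and 13.4. On chromosome 6 LTA, TNF and LTB formed a run; LTB, encoding lymphotoxin beta, had 6.05, 13.2 and 21 in Par and 53.4 and 109 in Int. SAA4, SAA2 and SAA1, serum amyloid genes on chromosome 11, formed another, with SAA1 at 505, 1390 and 1512 in Par and 3893 and 4320 in Int; none of the 3 was called. On chromosome 12 lay C1S, C1R and C1RL, and KLRC4, KLRC3 and KLRC2, receptors of natural killer cells. KLRC2 rose from 28.2, 23.8 and 17.8 to 209 and 350.4 (3.51 ± 0.90, adjusted p = 0.043). The cystatin genes CST4, CST1 and CST2 on chromosome 20 included the abundant CST1, with 3324, 2483 and 2093 in Par and 18771 and 58116 in Int (adjusted p = 0.063, not called). A run of 6 protocadherin genes on chromosome 5 held PCDHB13, which rose by 2.91 ± 0.46 (adjusted p = 0.012). Several of these families have near-identical copies, so that reads could be split between members. The runs were picked by their values and carry no test.

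Hypoxia and glycolysis genes were called higher in 10 of 28 and lower in 1, beside 4.33% and 2.61% of all genes. Their median was 0.43, and the fit of Par and Int alone called 6 and 0. Without Par replicates 1, 2 and 3 in turn 11, 5 and 7 were higher, and without Int replicates 1 and 2, 2 and 0. CA9, carbonic anhydrase 9, rose from 13.1, 19.7 and 32.3 to 309 and 1098 (4.77 ± 1.18, adjusted p = 0.041). VEGFA, the vascular growth factor, was abundant in every library and rose from 5874, 4598 and 4383 to 28080 and 28118 (2.52 ± 0.22, adjusted p = 0.0033). The Int libraries were higher than every Par library for both genes, with Int values of CA9 several-fold apart and those of VEGFA nearly equal. NDRG1 rose by 2.18 ± 0.41 (adjusted p = 0.019), and PFKFB4, encoding an enzyme that sets the pace of glycolysis, by 2.00 ± 0.18 (adjusted p = 0.0033). The exception was ADM, the peptide adrenomedullin, also a hypoxia target, which fell from 7872, 9191 and 10476 to 2967 and 4630 (−1.30 ± 0.25, adjusted p = 0.021), though it was not called after the correction.

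Integrins and adhesion genes were called higher in 7 of 23 and lower in none, beside 4.33% and 2.61% of all genes. Their median was 0.81. After the correction 1 was lower, and the fit of Par and Int alone called 4 higher. Without Par replicates 1, 2 and 3 in turn 11, 3 and 4 were higher, and without Int replicates 1 and 2, 1 and 0. ITGB6, encoding the epithelial beta 6 chain, had 5.04, 2.47 and 0 in Par and 40.7 and 70.9 in Int (4.31 ± 0.89, adjusted p = 0.026). The collagen receptor chain ITGA1 rose from 1199, 621 and 490.0 to 4966 and 8822 (3.21 ± 0.37, adjusted p = 0.0054), and its relatives ITGA2 and ITGA10 by 2.39 ± 0.51 and 2.73 ± 0.57. In these genes Par replicate 1 was the highest Par library, and the differences from it alone were 2.46, 1.49 and 2.17. ITGAV, ITGB4 and ITGA5 were the other members called.

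Of 35 collagen and matrix genes 6 were higher and 1 was lower, beside 4.33% and 2.61% of all genes. Their median was 0.71, and the fit of Par and Int alone called 2 and 2. Leaving out Par replicates 1, 2 and 3 in turn gave 11, 0 and 2 higher members, and leaving out either Int library none. LAMA3, encoding a laminin alpha chain, rose from 3041, 1166 and 747 to 8245 and 7811 (2.54 ± 0.52, adjusted p = 0.026). TNC, encoding tenascin C, rose from 4495, 2944 and 2366 to 13734 and 13822 (2.13 ± 0.32, adjusted p = 0.01). FN1, encoding fibronectin, is counted with the mesenchymal genes below and not in this list. It was higher in both Int libraries, 29682 and 30276, than in Par, 8161, 4544 and 4310 (2.47 ± 0.30, adjusted p = 0.0056). COL5A2, a fibrillar collagen chain, fell from 186, 145 and 134 to 62.6 and 81.8 (−1.09 ± 0.25, adjusted p = 0.034).

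Semaphorin, ephrin and axon guidance genes were higher in 7 of 34 and lower in none, beside 4.33% and 2.61% of all genes. Their median was 0.67. After the correction 1 was lower, and the fit of Par and Int alone called 4 higher. Leaving out Par replicates 1, 2 and 3 in turn gave 11, 3 and 6, and leaving out Int replicates 1 and 2 gave 1 and 0. SEMA4B, a transmembrane semaphorin, rose from 1465, 1221 and 1412 to 5667 and 5976 (2.09 ± 0.16, adjusted p = 0.0022). Its Par libraries and its Int libraries were each nearly equal, and its difference of 1.99 from Par replicate 1 alone and of 2.18 after correction were close to the main value. The plexin receptors PLXNB1 and PLXND1 rose by 2.19 ± 0.29 (adjusted p = 0.0071) and 1.71 ± 0.22 (adjusted p = 0.0071), and the secreted semaphorin SEMA3F by 1.82 ± 0.35 (adjusted p = 0.022).

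Epithelial genes were higher in 6 of 28 and lower in 1, beside 4.33% and 2.61% of all genes. Their median was 0.86. The fit of Par and Int alone called 2 and 0, and 11 were higher after the correction. Leaving out Par replicates 1, 2 and 3 in turn gave 10, 1 and 4 higher members, and leaving out either Int library none. ELF3, an epithelial transcription factor, rose from 8.06, 3.29 and 9.7 to 76.5 and 53.5 (3.12 ± 0.61, adjusted p = 0.022). JUP, the junction protein plakoglobin, rose from 1090, 945 and 1447 to 4857 and 5782 (2.21 ± 0.30, adjusted p = 0.0075), and the tight junction gene CLDN1 by 1.70 ± 0.39 (adjusted p = 0.032). KRT18, a simple epithelial keratin, fell from 15577, 38712 and 49938 to 9714 and 8540 (−1.77 ± 0.44, adjusted p = 0.041); its exons overlap those of KRT8 on the other strand in the annotation, and processed copies of it exist. CDH1, encoding E-cadherin, was high in 1 library only, with 306, 6.58 and 3.23 in Par and 7.87 and 15.9 in Int, and was not called (adjusted p = 0.71). Among 22 mesenchymal genes 3 were higher and 2 lower, beside 4.33% and 2.61% of all genes. FN1, PDGFRB and LOXL2 rose, and TAGLN and SNAI2 fell. After the correction 6 were higher and 3 lower. It was 6 and 4 without Par replicate 1, without Par replicate 2 or 3 it was 2 and 0, and without either Int library none was called. SNAI2, a repressor of epithelial genes, fell from 1302, 1371 and 1189 to 581 and 638 (−1.08 ± 0.26, adjusted p = 0.038).

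**Figure D3:**
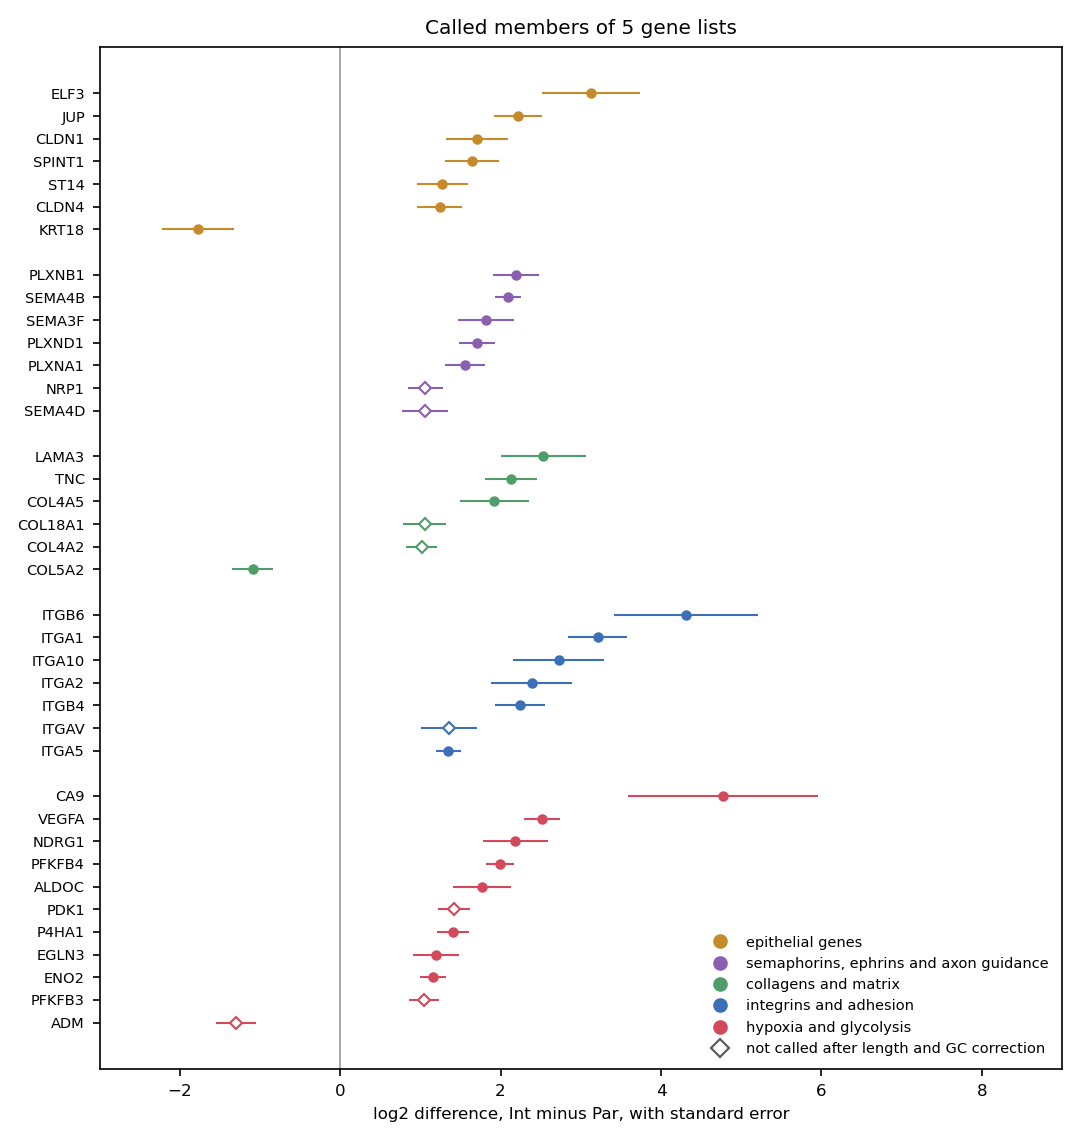
Log2 difference between Int and Par, with its standard error, for all but 1 of the called members of 5 gene lists; open diamonds mark genes that were not called after the correction for length and GC content. All but ADM, COL5A2 and KRT18 lie to the right of 0, and CA9 and ITGB6 have the highest values, 4.77 and 4.31.

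The largest falls were in a mixed set of genes. GNGT2, a G protein gamma subunit, fell from 263, 989.7 and 1420 in Par to 16.6 and 24.3 in Int (−5.09 ± 0.60, adjusted p = 0.0054). ABI3, an adaptor of the actin-regulating WAVE complex, fell from 524, 1357 and 2309 to 25.4 and 45.1 (−5.08 ± 0.52, adjusted p = 0.004). The 2 genes overlap on opposite strands in the annotation and the library kit does not mark strand, so that reads from the shared stretch cannot be told apart. The extent of the overlap was not measured. Their Lep values were lower than all Par values as well (171 and 192 for ABI3), and BrM had 1317, 1493 and 1465 for ABI3.

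ALPK2, an alpha-kinase, fell from 556, 288 and 632 to 9.62 and 19.3 (−4.99 ± 1.03, adjusted p = 0.026). TAGLN, encoding the actin-binding protein transgelin, was at 788, 2437 and 3825 in Par and 93.2 and 166 in Int (−3.96 ± 1.06, adjusted p = 0.047); its exons overlap those of PCSK7 on the other strand. Every Int value was below every Par value, but Par replicate 1 was the lowest Par library in TAGLN, and the difference from it alone was −2.65. FKBP10, a collagen-folding prolyl isomerase, fell from 2580, 5012 and 8955 to 438 and 601 (−3.25 ± 0.65, adjusted p = 0.024). PLCB2, a phospholipase C, fell from 461, 559.8 and 1114 to 34.1 and 60 (−3.84 ± 0.80, adjusted p = 0.026), and OLFML1, a secreted olfactomedin-like protein, from 316, 185 and 464 to 16.6 and 20.8 (−3.94 ± 0.45, adjusted p = 0.0054). The Lep libraries split for PLCB2, at 43 and 451, and were both low for OLFML1, at 4.87 and 5.98. TPTE fell by 4.11 ± 0.48 (adjusted p = 0.0054) and POTEE fell by 3.32 ± 0.51 (adjusted p = 0.011); both belong to families with near-identical copies.

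BEX5, a small adaptor protein gene on the X chromosome, fell from 306, 863 and 1274 to 60.4 and 68.9 (−3.41 ± 0.70, adjusted p = 0.025). KIAA2022 fell by 3.80 ± 0.94 (adjusted p = 0.04). PTPRN2, a phosphatase-like protein of secretory granules, fell by 3.22 ± 0.82 (adjusted p = 0.043), and HS6ST2, which sulphates heparan sulphate, fell by 2.97 ± 0.43 (adjusted p = 0.0089). LOC730755 fell by 3.40 ± 0.52 (adjusted p = 0.01); it has no transcript length here and was left out of the correction. RPPH1, the RNA of ribonuclease P, stood at 51.4, 290.2 and 311 in Par and 21 and 18.3 in Int (−3.03 ± 0.75, adjusted p = 0.04), a transcript of 333 bases in a library made from polyadenylated RNA. Its Par value was several-fold lower in replicate 1 than in the other Par libraries.

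**Figure D4:**
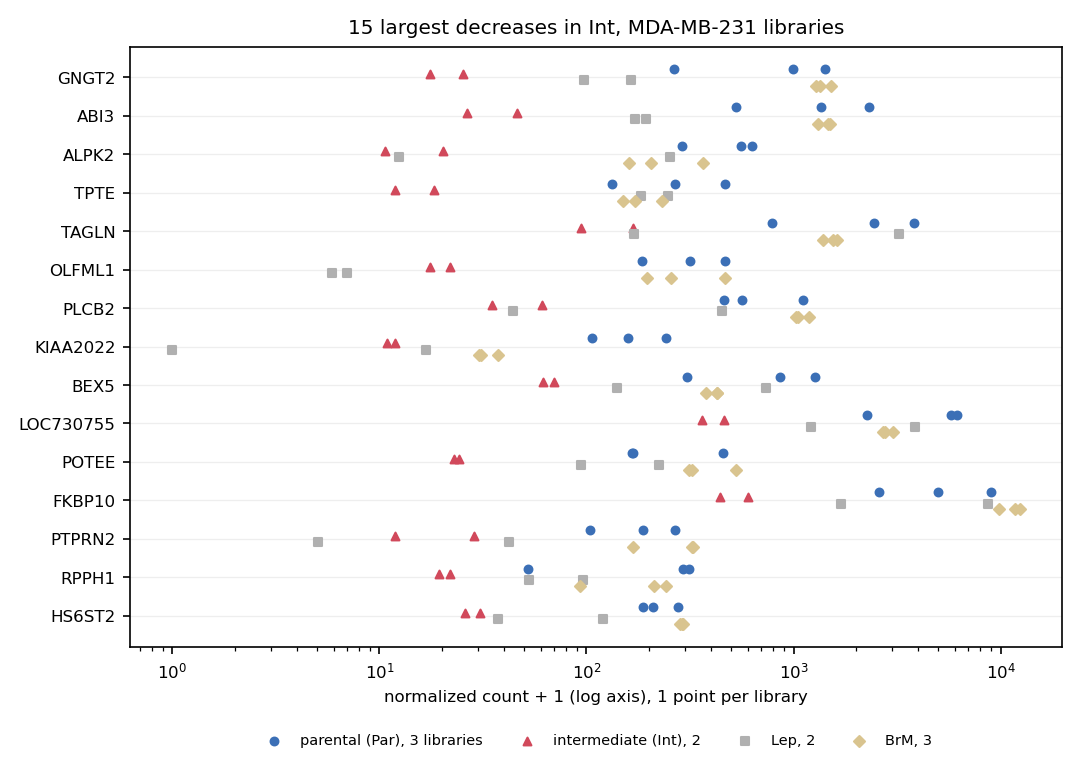
Normalised count plus 1 of the 15 genes with the largest falls in each of the 10 MDA-MB-231 libraries (log axis, 1 point per library). The Int points lie to the left of all Par points in every row; for GNGT2 and ABI3 the Par points span 263, 989.7 and 1420 and 524, 1357 and 2309, and the Int points 16.6 and 24.3 and 25.4 and 45.1.

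Cytosolic ribosomal protein genes were lower in 12 of 57 and higher in none, beside 2.61% and 4.33% of all genes. In 56 of the 57 both Int libraries lay below every Par library, as they did in 4430 of all 15106 genes. The median difference was −1.15, but −0.38 against Par replicate 1, −1.45 against replicate 2 and −1.60 against replicate 3. RPS27, a small subunit protein, had 548, 1227 and 1392 in Par and 270.3 and 279 in Int (−1.83 ± 0.37, adjusted p = 0.025). Par replicate 1 stood between the Int libraries and the other Par libraries. After the correction the median was −0.86, with 14 called lower, and in the fit of Par and Int alone no member was called. Without Par replicate 1, 52 of the 57 were lower, and without any other library none. The median length of the longest annotated transcript was 1857 bases in the list against 3576 for all genes. The part of the length trend in these values was not tested further. Many ribosomal protein genes have processed copies that could share reads.

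Subunits of the mitochondrial respiratory chain were lower in 2 of 46, beside 2.61% of all genes, with both Int libraries below every Par library in 35, beside 4430 of 15106. Their median was −0.90, but −0.18 against Par replicate 1 and −0.40 after the correction. Without Par replicate 1, 32 were lower, without Par replicate 3, 1, and without Par replicate 2 or either Int library none. NDUFB9, of complex I, fell by 1.20 ± 0.30 (adjusted p = 0.042), MTSS1 overlapping it on the other strand, and ATP5E, of the ATP synthase, from 155, 478 and 556 to 53.4 and 39.1 (−2.89 ± 0.51, adjusted p = 0.018). Very long genes of the cytoskeleton and of scaffolds also varied with the parental library: the median of the 30 was 1.00, but 0.02 against Par replicate 1, 1.89 against replicate 3 and 0.31 after the correction. Without Par replicate 1, 19 of the 30 were called higher, without Par replicate 3, 1, and without Par replicate 2 or either Int library none. LRP1, a large endocytic receptor, was the only one of them called, beside 4.33% of all genes called higher. It rose from 1988, 1445 and 1371 to 4170 and 5171 (1.56 ± 0.29, adjusted p = 0.019), and STAT6 overlaps it on the other strand.

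Of 30 proliferation genes 2 were lower and none higher, beside 2.61% and 4.33% of all genes. In 24 both Int libraries lay below all Par libraries, beside 4430 of all 15106 genes. There were 6 lower without Par replicate 1, 1 without Par replicate 3, and none without Par replicate 2 or either Int library. The median was −0.42, and it was −0.38, −0.36 and −0.44 against Par replicates 1, 2 and 3. CDC20, an activator of the anaphase-promoting complex, fell from 23013, 31033 and 41454 to 14294 and 11068 (−1.30 ± 0.23, adjusted p = 0.018), and TK1, thymidine kinase 1, fell by 1.05 ± 0.28 (adjusted p = 0.047). After the correction, and in the fit of Par and Int alone, no member was called; the corrected median was −0.36. At an unadjusted p under 0.05, 15 of the 30 were below in limma, beside 2910 of all 15106 genes.

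**Figure D5:**
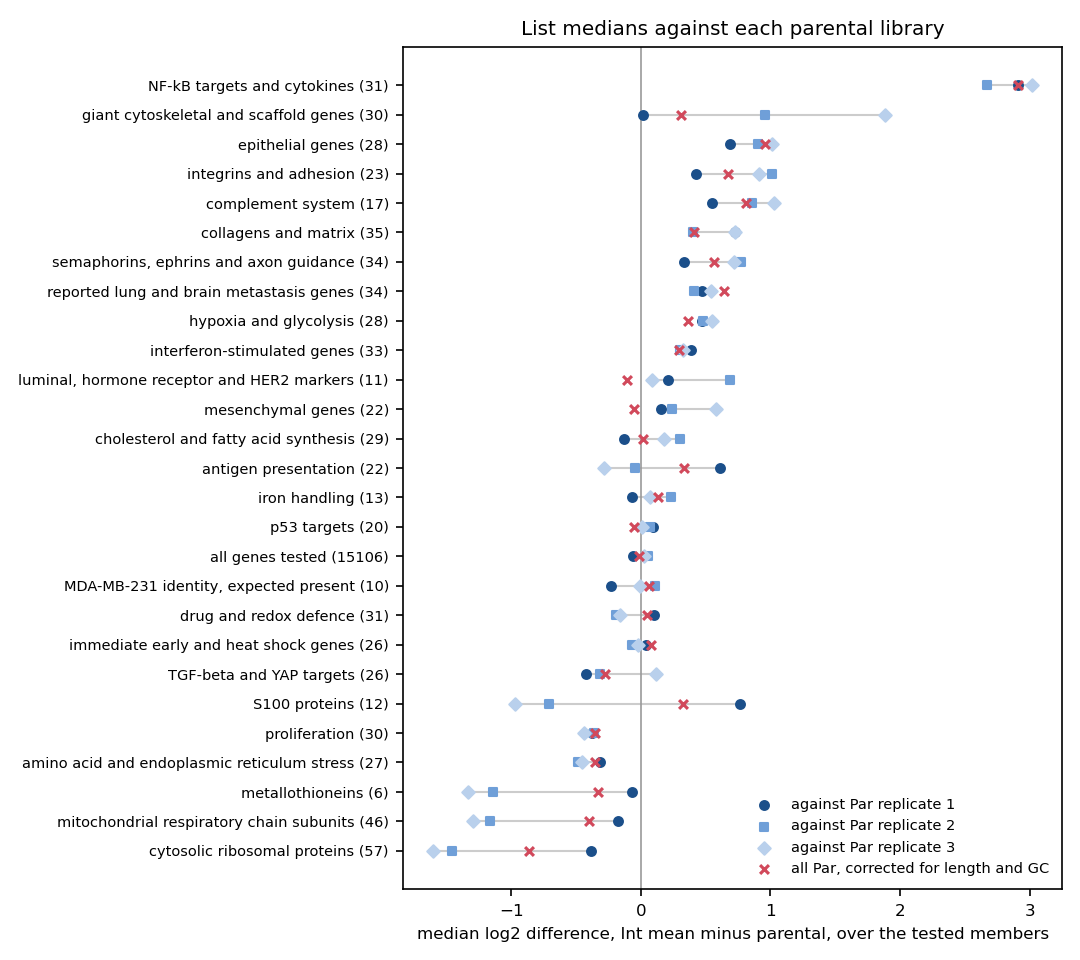
Median log2 difference of Int from each parental library over the tested members of each list (number in brackets; lists of host cell markers not drawn), with the median after correction for length and GC content as crosses. The NF-kB list stands at 2.67 to 3.02 against every Par library, whereas the ribosomal list ranges from −0.38 to −1.60 and the very long genes from 0.02 to 1.89.

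Among 27 genes of amino acid supply and endoplasmic reticulum stress 2 were higher and 2 lower. The list counts of this paragraph stand beside 4.33% called higher and 2.61% called lower over all genes. The 2 chains of the large neutral amino acid transporter fell together, SLC3A2 from 16765, 30052 and 28972 to 8502 and 7374 (−1.63 ± 0.25, adjusted p = 0.01) and SLC7A5 from 34157, 43145 and 31557 to 17845 and 15211 (−1.13 ± 0.26, adjusted p = 0.034). VLDLR, a lipoprotein receptor, rose by 1.90 ± 0.29 (adjusted p = 0.01). In the list of 31 genes of drug and redox defence, ABCC3, an efflux pump, rose from 125, 177 and 165 to 1342 and 1447 (3.17 ± 0.40, adjusted p = 0.0065), ALDH1A3 rose by 1.14 ± 0.23 (adjusted p = 0.024), and NQO1, a quinone reductase, fell from 14248, 27392 and 28169 to 9138 and 7591 (−1.42 ± 0.32, adjusted p = 0.031). Of 26 TGF-beta and YAP targets 5 were higher, TGFBR2 with 1.90 ± 0.33 among them, and 1 was lower, ANKRD1, at −1.11 ± 0.19, which was not called after the correction. Of 20 p53 targets 3 were higher, beside 4.33% of all genes. GDF15, a stress-induced cytokine, had the largest change of them (1.93 ± 0.43, adjusted p = 0.031). In the order of this paragraph, the fit of Par and Int alone called 0 and 0, 2 and 0, 2 and 0, and 1 and 0 members higher and lower. After the correction it was 1 and 3, 2 and 2, 4 and 0, and 2 and 0. Without Par replicate 1 it was 2 and 8, 4 and 4, 5 and 5, and 5 and 2, and without either Int library none.

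None of 29 genes of cholesterol and fatty acid synthesis, 26 immediate early and heat shock genes, 6 metallothioneins and 12 S100 proteins was called in limma. At an unadjusted p under 0.05, whatever the size, 3 genes were above and 5 below in the first list, 8 and 3 in the second, 0 and 2 in the third, and 2 and 2 in the fourth. At an adjusted p under 0.05, whatever the size, edgeR gave 1, 4, 0 and 0 genes and DESeq2 6, 9, 2 and 3. In the fit of Par and Int alone no member of the 4 lists was called, and after the correction 2 immediate early or heat shock genes and 2 S100 genes were. S100A4 had 3880, 3046 and 2067 in Par and 8914 and 13861 in Int (adjusted p = 0.065).

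Genes that had been reported for lung or brain metastasis of this line were in part higher. Of 34 tested, 7 were called higher and 1 lower, beside 4.33% and 2.61% of all genes, with a median of 0.57. After the correction 11 were higher; without Par replicates 1, 2 and 3 in turn 9, 0 and 3 were, and without either Int library none. Besides CSF3, PTGS2 and TNC, they included KYNU, of tryptophan breakdown (1.86 ± 0.50, adjusted p = 0.048), which was not called after the correction. ST6GALNAC5, a sialyltransferase, fell from 561, 612 and 488 to 146 and 214 (−1.64 ± 0.23, adjusted p = 0.0083).

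The labelled identity was checked with marker genes. VIM, the mesenchymal filament, was among the most abundant transcripts, at 310695, 391423 and 431119 in Par and 232308 and 223246 in Int. ESR1, the oestrogen receptor gene, had 6.05, 0.822 and 3.23 in Par and 3.06 and 3.96 in Int, near 0 in every library. ERBB2, encoding HER2, had 2846, 3066 and 3998 in Par and 3373 and 3219 in Int, and the groups overlapped. Of 10 markers of the line 1 was called, TGFBI, higher by 1.81 ± 0.35 (adjusted p = 0.021). Of 11 tested luminal and receptor markers 1 was called, AGR2, a secreted disulphide isomerase, higher by 2.25 ± 0.49 (adjusted p = 0.028). After the correction 3 were higher. Beside both lists, 4.33% of all genes were called higher.

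Since the derivatives had grown in a mouse, markers of cells of the host compartment were read in the same human table. PECAM1 and CDH5, endothelial adhesion genes, rose, PECAM1 from 37.3, 29.6 and 30.7 to 387 and 922 (4.16 ± 0.67, adjusted p = 0.012) and CDH5 from 1.01, 0.822 and 1.62 to 18.8 and 23.3 (3.37 ± 0.79, adjusted p = 0.035). Of the 10 endothelial markers 6 were tested and these 2 were called, beside 4.33% of all genes called higher. EMCN, ERG and TEK stayed under 3 in all 5 libraries. The summed level of the list was 8127 to 11741 in Par and 10441 to 10522 in Int. Most of that sum was ESAM, at 7091, 8876 and 11104 in Par and 9554 and 8742 in Int, so that it says little of the other members. CSF1R, the receptor of CSF1, rose from 56.4, 60.8 and 61.5 to 215 and 266 (1.99 ± 0.42, adjusted p = 0.027), while 8 of the 12 macrophage markers were below 10 in all 5 libraries, TYROBP and CD163 staying below 1. The summed macrophage list was 7563 to 11122 in Par and 11133 to 12549 in Int, most of it CD68. PDGFRB rose by 2.59 ± 0.71 (adjusted p = 0.0495) and the other fibroblast and pericyte markers were not called. Their summed list was 1831 to 2051 in Par and 2075 to 2322 in Int, mostly FOXC1 and COL1A1. Neural markers summed to 5065 to 7271 in Par and 9415 to 9615 in Int, mostly MBP, and SNAP25 fell by 1.91 ± 0.34 (adjusted p = 0.018); MOG was at 0 throughout. CD3E and CD2, markers of T cells, were at 0 in all 5 libraries. AQP1, a water channel, rose by 2.04 ± 0.33 (adjusted p = 0.012) among 4 tested choroid plexus markers. The summed choroid plexus list was 509 to 812 in Par and 1111 to 1174 in Int, mostly CLIC6. Without Par replicate 2 or either Int library none of these markers was called. The part of such cells in the results was not tested.

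The same stage was read in HCC1954, another breast cancer line, and PC9, a lung cancer line, each fitted in its own table. Int was higher than Par in 6.6% and lower in 14.6% of the genes tested in HCC1954, and higher in 6.24% and lower in 7.71% in PC9. Of the 654 genes higher in MDA-MB-231, 595 were tested in HCC1954, where 82 were higher and 131 lower, and 555 in PC9, where 67 were higher and 41 lower. Of the 395 lower genes, 354 were tested in HCC1954 with 20 higher and 33 lower, and 339 in PC9 with 26 higher and 12 lower. Beside the shares of all genes, those higher in MDA-MB-231 were thus called higher in 13.8% in HCC1954 and 12.1% in PC9, and lower in 22% and 7.39%. Those lower in MDA-MB-231 were called lower in 9.32% and 3.54%, both under the share of all genes, and higher in 5.65% and 7.67%. No test was made of these shares.

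There were 9 genes called higher in all 3 lines, among the 654 called higher in MDA-MB-231. Of those tested in the other lines, 13.8% were called higher in HCC1954 and 12.1% in PC9. Whether 9 is more than separate calls in the 3 lines would share was not tested. LCN2 changed by 5.10 in MDA-MB-231, 1.55 in HCC1954 and 2.13 in PC9. RARRES1, a retinoid-induced gene, had 2.63, 2.32 and 2.74, and RBP4, the plasma carrier of retinol, 3.59, 1.77 and 1.89. RBP4 was at 1.01, 0 and 0 in Par and 16.2 and 12.4 in Int, low levels in MDA-MB-231. BCL3, encoding an atypical NF-kB inhibitor protein, had 1.52, 1.00 and 1.47. The others were EGLN3, FAM115C, LOC100129196, SELENBP1 and TP53INP1. Lower in all 3, among the 395 lower in MDA-MB-231, were LOC643650, PTPRR, a receptor tyrosine phosphatase (−1.64, −2.71 and −1.31), and SH2D5. Of the lower genes tested in the other lines, 9.32% were called lower in HCC1954 and 3.54% in PC9. These genes of all 3 lines were chosen by their values, and the differences between lines were not tested.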

How the data were processed

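Polyadenylated RNA (500 ng input, RIN above 9.5) was sequenced as paired 75-base reads from TruSeq v2 libraries, per the labels' protocols. The values deposited by the authors are normalised counts per gene, a signal in which 1 read has 1 value per library. FastQC 0.11.3, HTSeq 0.5.4, DESeq2 and the builds hg19 and mm10 are listed, without their roles, per the submitters' processing notes. No aligner is named there or in the labels. In the 10 libraries 100% of the values were whole multiples of 1 read (tolerance 0.01), which gave 23508951 to 110830546 counts per library. The totals of both Int libraries and Par replicate 2 exceed the number of read pairs in the labels, and whether mates were counted separately is not given.

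Genes at 10 or more in at least 2 of the 10 libraries were tested with limma 3.58.1 (R 4.3.3) on log2(value + 1), with 1 mean per stage and an error shared by the 4 stages. A call needed a Benjamini-Hochberg adjusted p under 0.05 over all genes tested and a log2 difference of at least 1. edgeR 4.0.16 on the recovered reads called 747 genes higher and 454 lower; DESeq2 1.42.0 was also run. For the correction, a lowess curve (span 0.3) on transcript length and GC content was removed from each library, for the 14355 genes (95%) with a GENCODE longest transcript. The transcript expressed may be shorter than the longest one, so that the correction can be inexact for single genes and lists. Groups came from sample titles. Replicate numbers were not used to pair the Par and Int libraries in the main fit.

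Named were the 15 largest called changes in each direction among genes without overlap whose higher group averaged 100 or more; up to 4 called members per list and direction, or 3 with the widest gap where none was called; C3, LCN2, SLC22A17, VIM, CDH1, ESR1, ERBB2 and the NF-kB list. The genes of the runs of neighbours, those called in all 3 lines, C1R, C1S and those of the last closing paragraph were named after their values were seen. The comparison, its members and the lists were chosen with earlier results of these data known. The fits were tested on simulated data. Alternatives were another normalisation, filter, pseudocount, tool, set of libraries, and leaving out each replicate. Some genes that the rule would name are not reported here.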

Additional observations from a re-analysis of the deposited data

Results flagged for a closer look

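In 7 named genes the difference between Int and Par was called in both breast cancer lines with opposite sign, and in each line the Int and Par libraries did not overlap in that direction. MUC5B was at 6.76 in MDA-MB-231 and -3.41 in HCC1954, SERPIND1 at 4.28 and -4.64, NOX5 at 5.45 and -1.93, and C1QTNF1 at 4.72 and -1.84. TNFSF15 was at 5.60 and -1.20, and TNFAIP2 at 1.19 and -1.05. BEX5 was at −3.41 in MDA-MB-231 and 1.46 in HCC1954. The difference between the lines was not tested.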

How the results depend on the processing

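The counts of 654 higher and 395 lower genes became 282 and 74 in the fit of Par and Int alone, 1004 and 1166 with DESeq2, and 31 and 7 with Par replicate 1 as the only parental library. Without a filter on low values 216 genes were lower. Leaving out 1 library at a time gave 0 to 2008 higher and 0 to 1837 lower genes. With 1 library left in a group, that library is assumed to vary like the other groups. Quantile, TMM, pseudocount, filter, edgeR and length corrections kept the other counts within 1.5 times. Of 143 genes named by the rule, 106 of them called, 45 lost their call in the fit of Par and Int alone, 97 against Par replicate 1 only, 101 and 106 without Int replicate 1 or 2, 78 and 53 without Par replicate 2 or 3, and 10 after the length and GC correction; DESeq2 added 16 calls. The cause was not tested.

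The sign turned in some genes that were not called: ESR1, CDH1 and RELB, and, where 1 of the values lay within 0.1 of 0, also ERBB2, IL24, NFKB1 and VIM. ESR1 was at -0.17 with quantile normalisation, -0.15 after the correction with all stages and with Par and Int alone, and -0.65 against Par replicate 1 only, and ranged from -0.28 to 0.69 with 1 library left out. CDH1 ranged from -1.98 to 1.11 with 1 library left out, the highest value being that without Par replicate 1. RELB was at 0.27 against Par replicate 1 only.

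With the replicate number as a block, 511 genes were higher and 294 lower, or 624 and 305 with the correction. Deviations of same-numbered Par and Int libraries had correlations of -0.0905 and 0.0282. With 2 Int libraries the deviations of 1 mirror those of the other, so that these values cannot decide whether the number pairs them. For replicates 1 and 2 the correlations were 0.5 and 0.265 between Par and BrM, and 0.37 and -0.0187 between Par and Lep. The correction within Par and Int alone, added after the data were seen, called 704 and 278.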

Other observations

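Some abundant transcripts lay far below Par in both Int libraries without being called, and the Lep libraries split for them. SPARC, a secreted matrix protein, had 2709, 3264 and 5976 normalised counts in Par and 92.7 and 224 in Int, with 28.4 and 4901 in Lep (−4.69, limma adjusted p = 0.079). ENG, a TGF-beta co-receptor, had 4397, 7045 and 11599 and 692 and 601, with 302 and 6936 in Lep (−3.46, limma adjusted p = 0.057). TUBA3C, an alpha tubulin with near-identical copies, had 3397, 9206 and 15721 and 112 and 263, with 13.8 and 8095 in Lep. PAGE5, a cancer-testis antigen gene on the X chromosome, had 2149, 7547 and 10701 and 192 and 269.6, with 2.44 and 7166 in Lep. In all 4 genes Lep replicate 1 was lower than both Int libraries and Lep replicate 2 stood within the Par range. In the fit of Par and Int alone their adjusted p was 0.027, 0.034, 0.034 and 0.041.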
